A study of Mus musculus with 16 samples.

Results

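Transcripts of the receptor MET, its ligand HGF and the proteins that switch the ligand on were compared between melanomas of a pair of mouse models and melanocytes. The 8 genes described are Met, Hgf, Hgfac, St14, Hpn, Spint1, Spint2 and Gab1. They were chosen by name, as genes of this signalling axis, and each array probe set (a group of short probes read as 1 value) whose annotation gives 1 of these symbols and no other was taken. That gave 12 probe sets of the 20380 with 1 symbol, and 8 of the 12393 genes on the array. Met, Hgfac, Hpn, St14 and Spint1 have 1 probe set each, Hgf and Spint2 have 2 each, and Gab1 has 3.

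MET is a receptor tyrosine kinase found mainly on epithelial cells and melanocytes, and HGF is its ligand, made mostly by fibroblasts and other mesenchymal cells. HGF is secreted as an inactive precursor that serine proteases cut, among them HGF activator (Hgfac), matriptase (St14) and hepsin (Hpn). The Kunitz-type inhibitors HAI-1 (Spint1) and HAI-2 (Spint2) block these proteases, and inside the cell the docking protein GAB1 gathers signalling partners on the activated receptor.

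The study put Affymetrix mouse 430A 2.0 arrays on 16 samples to find genes that separate melanomas able or unable to metastasise. Melanomas of the iMet mouse (6 arrays) carry Tyr-rtTA, Tet-Met and Ink4a/Arf-/-. A tetracycline-inducible Met transgene is thus driven through the tyrosinase promoter, active in pigment cells, without Ink4a and Arf. The iHRAS* melanomas (6 arrays) carry Tyr-rtTA, Tet-HRASV12G and Ink4a/Arf-/-, the same construction with an activated HRAS. Melanocytes with no disease (4 arrays) complete the set. Both tumour models thus share Tyr-rtTA and the Ink4a/Arf deletion and differ in the inducible gene, and the labels give the melanocytes no genotype, strain or culture state. Ages, inducer treatment and the number of animals behind each group are not given in the sources used here, so p-values measure the spread between these samples. The tumour labels speak of isolated melanoma cells and the design text of RNA from melanomas.

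Values are log2 signals after quantile normalization of the deposited table, and the 40th percentile of all signals, log2 6.21, served as the level below which a probe set was called dim. The marker genes of the groups did not all follow their labels. Of 10 melanocyte markers with a probe set, 7 were dim on all 4 melanocyte arrays, namely Mitf, Tyr, Tyrp1, Dct, Kit, Ednrb and Gpr143, with Tyr at a mean of 3.97. The mean of the 10 markers was 5.32 in melanocytes, 5.43 in iMet and 6.32 in iHRAS* tumours, and it was lower in iMet than in iHRAS* by −0.89 (2-sided exact permutation p = 0.00866, adjusted 0.0179 over 15 marker comparisons). Members differed in their order: Sox10, a transcription factor of the neural crest lineage, averaged 9.66, 6.90 and 10.16 in these groups, Mitf 5.67, 7.56 and 7.34, and Kit 2.48, 6.89 and 6.93. The mean of 12 keratinocyte markers was 8.32 in melanocytes, 6.83 in iMet and 9.22 in iHRAS* tumours. These members differed in their order too, and 3 of them were dim on all 4 melanocyte arrays, namely Cdh1, Epcam and Cldn1. Epcam averaged 1.63, 4.98 and 8.64 in the same groups, whereas Krt5 averaged 12.57, 8.54 and 11.07. The mean of 11 fibroblast markers was 9.30, 11.26 and 11.42 in that order. Macrophage markers averaged 4.76 in melanocytes, 10.73 in iMet and 9.95 in iHRAS* tumours. In bulk samples such as these, fewer cells of a type and less RNA per cell cannot be told apart. Xist lay between 6.33 and 6.60 on iHRAS* arrays 5 and 6 and between 10.92 and 13.07 on the other 14 arrays.

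The promoters of Met, Hgf and Spint2 are shown because the ranges of these 3 genes did not overlap between the tumour models. A window of 250 bases before the start of transcription, from RefSeq in build GRCm38.p6, was searched on both strands for 4 motifs. These were the AP-1 motif TGAGTCA, the palindromic E-box CACGTG, the E-box written CATGTG, and the E-box written CAGGTG. No match overlapped a match of another motif. The Met window precedes a start inside the gene's annotated span, so that all its 250 bases, with both motifs, lie within that span, as do 82 bases of the Spint2 window. Hgf, Hpn and Gab1 had 2 windows each, and the matches given for Hgf and Hpn are all in the outer one. The stretches below are written 5′ to 3′ in the direction of the gene, with the motif in capitals.
Met, chr6:17463820-17463849, plus strand, CACGTG 126 bases before the start: ggacgaacagaCACGTGctggggcgggtac
Met, chr6:17463892-17463921, plus strand, TGAGTCA 54 bases before the start: tgttgcccggcTGAGTCAcgggccgggcag
Hgf, chr5:16553245-16553494, plus strand, CATGTG read on the other strand 19 bases before the start: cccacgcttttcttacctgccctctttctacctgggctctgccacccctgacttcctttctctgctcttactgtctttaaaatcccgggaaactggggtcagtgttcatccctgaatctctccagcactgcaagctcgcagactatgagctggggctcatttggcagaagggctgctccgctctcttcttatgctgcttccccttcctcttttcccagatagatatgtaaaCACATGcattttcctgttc
Spint2, chr7:29282033-29282062, minus strand, CAGGTG 74 bases before the start: gggggcggtgcCAGGTGcaggccgcagagc
Spint2, chr7:29281978-29282007, minus strand, CAGGTG 9 bases before the start: gccgcatctgccccgccccgcCAGGTGcgc

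Spint2 held another CAGGTG 55 bases before the start. Of 32851 mouse promoter windows of that length, 4.46% held TGAGTCA, 6.02% held CACGTG, 12.3% held CATGTG and 17.2% held CAGGTG. Hgfac held 1 CAGGTG and Hpn held 2, while these letters were not in the windows of Spint1 and Gab1. The matches describe sequence and were not tied to binding or to the levels below. Windows were found for 7 of the 8 genes, all but St14.

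Met, the receptor and the engineered gene of the iMet model, was highest in iMet tumours and lowest in iHRAS* tumours, with melanocytes between them. Its probe set 1422990_at read 9.60, 8.39, 9.69, 9.98, 9.67 and 9.49 on iMet arrays 1 to 6. The iHRAS* arrays read 5.42, 7.46, 6.99, 7.07, 7.29 and 7.43, and the melanocyte arrays 7.85, 8.91, 7.25 and 9.13. The ranges of the 2 tumour models did not overlap, whereas the melanocyte range reached into both. Means were 9.47 ± 0.55 (SD, n = 6) in iMet, 6.94 ± 0.77 (SD, n = 6) in iHRAS* and 8.29 ± 0.89 (SD, n = 4) in melanocytes.

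Between the models Met was higher in iMet by 2.53 ± 0.35 (SE) on the log2 scale, or 5.78-fold, with an adjusted p of 0.000685 in limma and a 95% interval of 1.76 to 3.30. It ranked 40 among the probe sets higher in iMet by size of difference. Against melanocytes the iMet tumours differed by 1.18 ± 0.44 (SE), and the limma adjusted p of 0.05003 lay just above the threshold of 0.05, so Met was not called there. Met fell by 1.35 ± 0.44 (SE) in iHRAS* tumours against melanocytes, 2.54-fold, with a limma adjusted p of 0.0248. Both results depended on melanocyte arrays 2 and 4, which read higher for Met than arrays 1 and 3. Without these 2 arrays, the iMet difference was 1.92 (limma adjusted p = 0.0153) and the iHRAS* difference −0.61 (limma adjusted p = 0.394). Without arrays 1 and 3 in their place, the iMet difference was 0.45 (limma adjusted p = 0.539). Whether the probe set reads the transgene, the mouse's own gene or both was not tested.

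**Figure D1:**
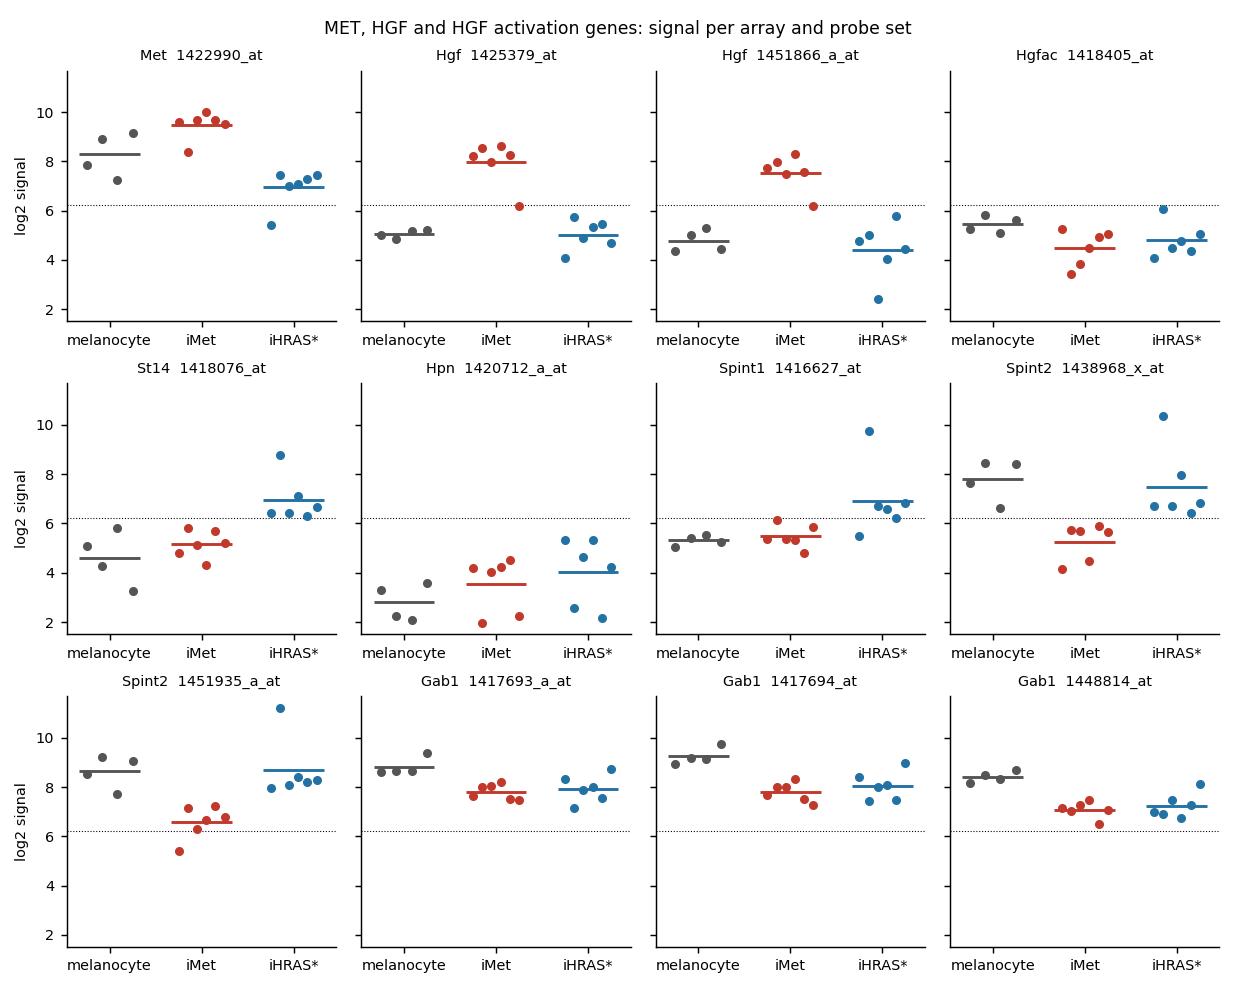
Quantile-normalized log2 signal (vertical axes) of the 12 probe sets in melanocytes (4 arrays), iMet (6) and iHRAS* tumours (6), with 1 point per array, a bar at each group mean and a dotted line at 6.21, the level below which a probe set is dim. Met, both Hgf, St14 and both Spint2 probe sets have no overlap between the 2 tumour models, and Hgfac and Hpn stay under the dotted line on all 16 arrays.

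The same melanocyte arrays differed in markers of other cells. Keratinocyte markers averaged 9.37 and 9.56 on melanocyte arrays 2 and 4, against 7.65 and 6.70 on arrays 1 and 3. Fibroblast markers ran the other way, at 8.44 and 7.67 on arrays 2 and 4 against 10.16 and 10.94 on arrays 1 and 3. Their part in the Met values was not tested. With the keratinocyte mean of each array as a covariate, the difference in Met between the tumour models was 2.22 (limma adjusted p = 0.0398), although this mean barely overlapped between the models. Against melanocytes it was 1.27 (limma adjusted p = 0.0736) in iMet and −1.40 (0.0312) in iHRAS* tumours.

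Hgf, the ligand, was above the dim level in iMet tumours alone among the 3 groups. Probe set 1425379_at read 8.23, 8.54, 7.95, 8.63, 8.25 and 6.17 on iMet arrays 1 to 6. It read between 4.09 and 5.74 on the iHRAS* arrays, with a median of 5.10, and 5.03, 4.86, 5.17 and 5.21 on the melanocyte arrays. The other groups were thus dim on all their arrays, and 5 of the 6 iMet arrays were not. Array 6 stood apart as the lowest of the iMet group, although still above all arrays of the other 2 groups.

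The second Hgf probe set, 1451866_a_at, gave the same order. It read 7.71, 7.97, 7.49, 8.30, 7.56 and 6.20 on the iMet arrays, between 2.40 and 5.77 on iHRAS* arrays (median 4.60), and 4.34, 5.0, 5.29 and 4.43 on melanocyte arrays. The iMet range lay above those of both other groups, and iMet array 6 was again its lowest. Once group means were subtracted, the 2 probe sets correlated at r = 0.52 over the 16 arrays, which share the same libraries.

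With 5 bright arrays where the filter asked for 6, Hgf did not enter the limma fit between the tumour models. As measured, iMet exceeded iHRAS* by 2.93 on the log2 scale, 7.63-fold, for 1425379_at and by 3.14, 8.80-fold, for 1451866_a_at. The 2-sided exact permutation p was 0.00216 for each probe set, the smallest that 6 against 6 arrays can give. Without the dim filter the limma adjusted p was 0.00201 and 0.00389. Dim signals bound these folds poorly, since a probe set under 6.21 may stand for less RNA than its signal.

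Against melanocytes Hgf rose in iMet tumours by 2.89 ± 0.41 (SE), 7.44-fold (limma adjusted p = 0.000105), and by 2.77 ± 0.52 (SE), 6.84-fold (limma adjusted p = 0.000965). In iHRAS* tumours the differences from melanocytes were −0.04 ± 0.41 and −0.36 ± 0.52 (SE), with limma adjusted p of 0.952 and 0.604, and both groups were dim. Hgf entered the fit of all arrays through the iMet arrays alone, so its difference between iMet tumours and melanocytes was built into its selection.

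Markers of fibroblasts and other cells around the tumour were measured on the same arrays, and their part in the Hgf values was not tested. The fibroblast mean differed between iMet and iHRAS* tumours by −0.16 (2-sided exact permutation p = 0.431), with 1 of 11 genes higher and 1 lower in iMet. In both models it exceeded melanocytes, by 1.96 in iMet and 2.12 in iHRAS* (exact permutation p = 0.00952 for each). Endothelial markers were higher in iMet than in iHRAS* by 0.76 (exact permutation p = 0.0433, 0.0649 after adjustment over the same 15 comparisons), with 7 of 10 genes called higher. The endothelial mean was 8.08 in iMet, 7.32 in iHRAS* and 4.40 in melanocytes, and the macrophage mean was likewise highest in iMet, as given above. On iMet arrays 1 to 6 the fibroblast mean was 11.38, 11.33, 11.66, 11.22, 11.14 and 10.86. The endothelial mean was 8.10, 9.23, 7.53, 8.40, 7.92 and 7.29 on these arrays. Both means were lowest on array 6, where Hgf was lowest. Array 3, with the highest fibroblast mean, read 7.95 and 7.49 for Hgf, below all other iMet arrays but array 6. On the iHRAS* arrays, all dim for Hgf, the fibroblast mean ran from 10.87 to 11.87.

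**Figure D2:**
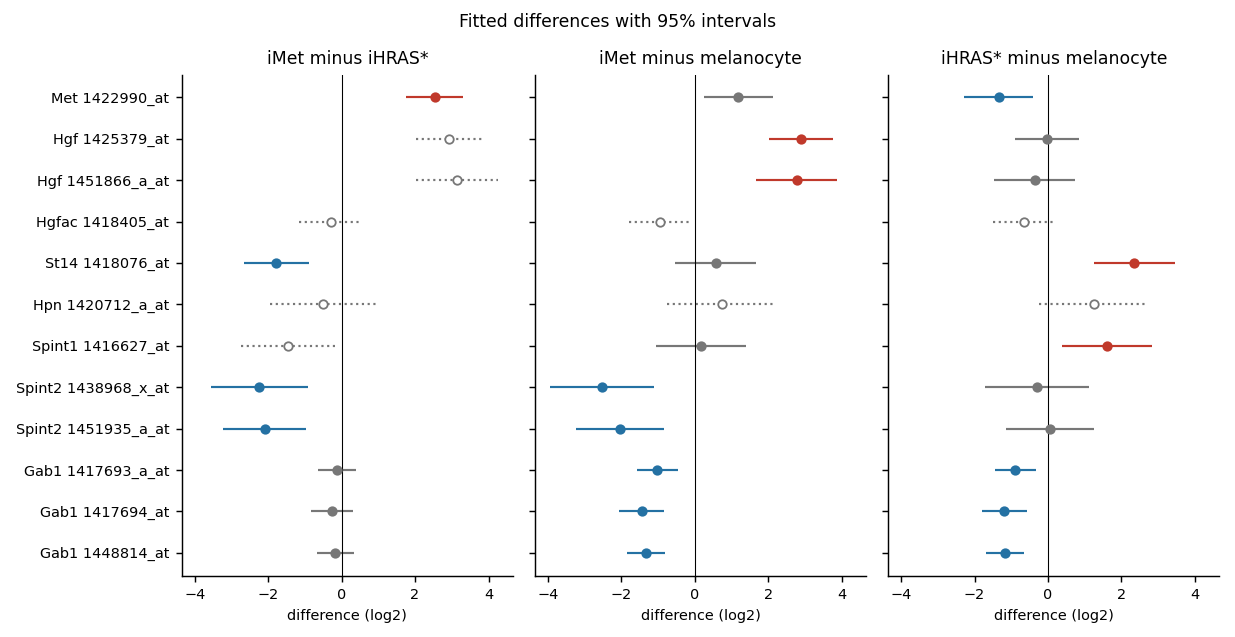
Differences in log2 signal (horizontal axes) of the 12 probe sets in 3 panels, iMet minus iHRAS*, iMet minus melanocyte and iHRAS* minus melanocyte, with 95% intervals from limma. Red marks a higher call, blue a lower call and grey no call, and open symbols with dotted lines mark probe sets left out by the dim filter, drawn from the fit without it. Met is the 1 tested probe set called higher between the models, at 2.53, while St14 and both Spint2 probe sets are called lower.

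Of the 3 proteases, St14 (matriptase, a membrane-bound serine protease of epithelia) was the 1 with signal above the dim level, in iHRAS* tumours. Its probe set 1418076_at read 6.42, 8.78, 6.41, 7.13, 6.29 and 6.67 on iHRAS* arrays 1 to 6. The iMet arrays ran from 4.31 to 5.81 with a median of 5.18, and the melanocyte arrays read 5.10, 4.26, 5.80 and 3.25. All 6 iHRAS* arrays lay above all arrays of the other 2 groups, which were dim, and iHRAS* array 2 stood well above the rest.

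St14 was lower in iMet than in iHRAS* tumours by −1.78 ± 0.41 (SE) on the log2 scale, 3.44-fold (limma adjusted p = 0.0102). In iHRAS* tumours it exceeded melanocytes by 2.35 ± 0.52 (SE), 5.09-fold (limma adjusted p = 0.00280). In iMet tumours the difference was 0.57 ± 0.52 (SE), with a limma adjusted p of 0.425. It entered both fits through the iHRAS* arrays alone, so a difference was built into its selection, and both folds are taken against dim signals, which bound them poorly. Leaving out iHRAS* array 2 gave −1.42 between the models (limma adjusted p = 0.00536) and 1.98 against melanocytes (limma adjusted p = 0.00293). Without melanocyte arrays 2 and 4, the rise over melanocytes was 1.50 (limma adjusted p = 0.0761).

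Hgfac and Hpn, the liver-enriched activators, were dim on all 16 arrays. Hgfac ranged from 3.42 to 5.27 in iMet tumours, from 4.06 to 6.05 in iHRAS* tumours and from 5.09 to 5.83 in melanocytes. Hpn ranged from 1.98 to 4.51, from 2.18 to 5.33 and from 2.07 to 3.59 in the same order. Neither was tested in the limma fits, and between the tumour models the exact permutation p was 0.489 for Hgfac and 0.494 for Hpn. Against melanocytes Hgfac differed by −0.95 in iMet (exact permutation p = 0.0381) and −0.65 in iHRAS* (0.129), and Hpn by 0.73 (0.267) and 1.24 (0.143). Differences between dim signals are poorly measured.

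Spint1, which encodes the inhibitor HAI-1, was above the dim level on 5 iHRAS* arrays and on no array of the other groups. Its probe set 1416627_at read 5.48, 9.75, 6.73, 6.58, 6.22 and 6.83 on iHRAS* arrays 1 to 6. The iMet arrays ran from 4.82 to 6.13 (median 5.36), and the melanocyte arrays read 5.03, 5.43, 5.53 and 5.26. The iHRAS* range overlapped both others through its array 1, and array 2 was far the highest, as for St14.

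With 5 bright arrays Spint1 did not enter the fit between the models, where it differed by −1.46 with a 2-sided exact permutation p of 0.00866. Without the dim filter the limma adjusted p was 0.134. The iHRAS* tumours exceeded melanocytes by 1.62 ± 0.58 (SE), 3.07-fold (limma adjusted p = 0.0371), having entered that fit through the iHRAS* arrays alone. That call was lost when any 1 melanocyte array was left out, with values between 1.52 and 1.69 and limma adjusted p between 0.0557 and 0.0865. It was also lost without iHRAS* array 6, at 1.64 (limma adjusted p = 0.0521), and without the dim filter (limma adjusted p = 0.0519). With only the 2 groups in the fit, the keratinocyte covariate, or without melanocyte arrays 1 and 3 or 2 and 4, it was lost too. Without iHRAS* array 2 the rise was 1.05 (limma adjusted p = 0.0110). In iMet tumours Spint1 differed from melanocytes by 0.16 ± 0.58 (SE, limma adjusted p = 0.853).

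Spint2, which encodes HAI-2, was lower in iMet tumours than in either other group. Its brighter probe set, 1451935_a_at, read 5.42, 7.16, 6.28, 6.68, 7.25 and 6.77 on iMet arrays 1 to 6. The iHRAS* arrays read 7.95, 11.22, 8.08, 8.41, 8.20 and 8.29, and the melanocyte arrays 8.54, 9.20, 7.72 and 9.06. All iMet arrays lay below all other arrays, and iHRAS* array 2 was again the highest of its group.

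The second Spint2 probe set, 1438968_x_at, ran from 4.14 to 5.88 in iMet tumours (median 5.66) and from 6.44 to 10.34 in iHRAS* tumours (median 6.77). The melanocyte arrays read 7.65, 8.45, 6.63 and 8.42. It too kept all iMet arrays below all others, and all 6 were dim. The pair correlated at r = 0.92 over the 16 arrays once group means were subtracted.

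Between the models Spint2 was lower in iMet by −2.10 ± 0.52 (SE) for 1451935_a_at, 4.27-fold (limma adjusted p = 0.0154), and by −2.24 ± 0.61 (SE) for 1438968_x_at, 4.72-fold (limma adjusted p = 0.0231). Against melanocytes the iMet tumours differed by −2.04 ± 0.56 (SE), 4.10-fold (limma adjusted p = 0.0121), and by −2.53 ± 0.67 (SE), 5.77-fold (limma adjusted p = 0.00913). The iHRAS* tumours differed from melanocytes by 0.06 ± 0.56 and −0.29 ± 0.67 (SE), with limma adjusted p of 0.942 and 0.753. Probe set 1438968_x_at entered the fit between the models through the iHRAS* arrays alone, so that it had to differ there, and its folds are taken against dim iMet signals. Without iHRAS* array 2 the differences between the models were −1.59 (limma adjusted p = 0.00433) and −1.67 (limma adjusted p = 0.0118). Without iMet array 1, 1438968_x_at gave −2.02 (limma adjusted p = 0.0549). Without melanocyte arrays 2 and 4, the iMet differences from melanocytes were −1.54 (limma adjusted p = 0.153) and −1.88 (limma adjusted p = 0.137).

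St14, Spint1 and Spint2 are known from epithelia, and keratinocyte markers moved between the models in the same direction. The keratinocyte mean ran from 4.70 to 8.67 in iMet tumours and from 8.64 to 10.02 in iHRAS* tumours, a difference of −2.39 (2-sided exact permutation p = 0.00433, adjusted 0.0143). Of the 11 keratinocyte genes tested, 4 were called lower in iMet and 0 higher by limma. With this mean as a covariate, the differences between the models were −1.33 for St14 (limma adjusted p = 0.225), −1.82 for Spint2 1451935_a_at (0.214) and −1.58 for 1438968_x_at (0.344), so these calls were lost. The covariate barely overlapped between the models, and the part of keratinocytes in these differences was not tested. The array with the highest St14, Spint1 and Spint2, iHRAS* array 2, had a keratinocyte mean of 8.77, near the low end of its group. On iMet arrays 1 to 6 the keratinocyte mean was 4.86, 8.67, 7.73, 4.70, 6.53 and 8.50. Spint2 1451935_a_at read 5.42, 7.16, 6.28, 6.68, 7.25 and 6.77 on these arrays. On melanocyte arrays 1 to 4 the keratinocyte mean was 7.65, 9.37, 6.70 and 9.56. St14 read 5.10, 4.26, 5.80 and 3.25 there, and Spint1 5.03, 5.43, 5.53 and 5.26, all dim. Spint2 1451935_a_at read 8.54, 9.20, 7.72 and 9.06 on the same melanocyte arrays.

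**Figure D3:**
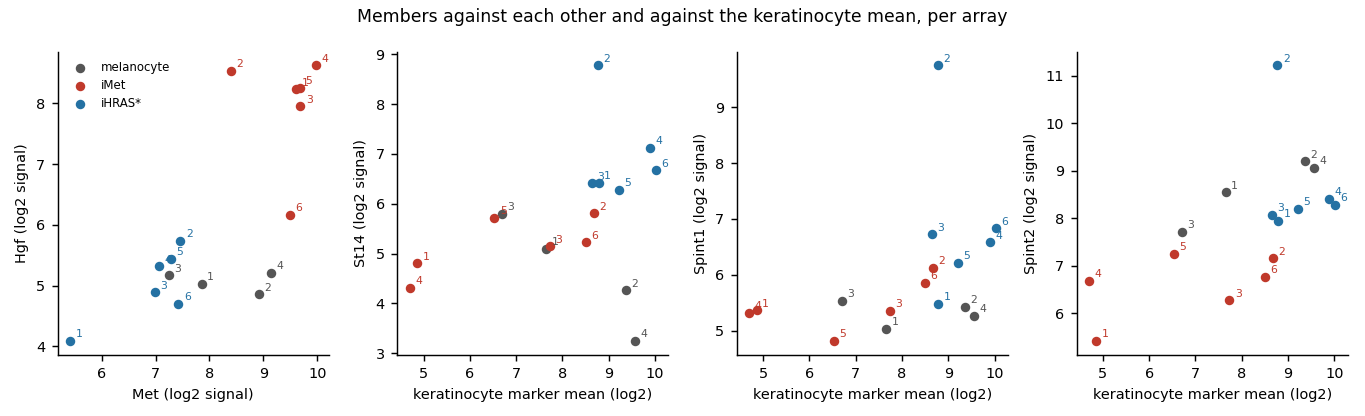
Pairs of log2 values per array, with the replicate number beside each point and colours for the 3 groups. The first panel sets Hgf 1425379_at against Met, and the others set St14, Spint1 and Spint2 1451935_a_at against the mean of 12 keratinocyte markers. The iHRAS* array 2 is the highest in all 3 keratinocyte panels at a mean of 8.77, and the iMet arrays spread from 4.70 to 8.67 along that axis.

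Inhibitor and protease were also set side by side within each array, as a difference between probe sets whose zero has no meaning. St14 was dim in melanocytes and iMet tumours, and Spint1 too, so these differences are poorly measured there and are given as description. Spint2 1451935_a_at minus St14 averaged 4.03 ± 1.72 (SD, n = 4) in melanocytes, 1.43 ± 0.58 (SD, n = 6) in iMet and 1.74 ± 0.40 (SD, n = 6) in iHRAS* tumours. The tumour models overlapped in this measure. Spint1 minus St14 averaged 0.71 ± 1.08 in melanocytes, 0.31 ± 0.65 in iMet and −0.02 ± 0.67 in iHRAS* tumours (SD), and all 3 groups overlapped.

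Gab1, the docking protein, was bright in all groups and highest in melanocytes. Its probe set 1417694_at read 8.92, 9.18, 9.14 and 9.75 on the melanocyte arrays. It ran from 7.27 to 8.32 in iMet tumours (median 7.84) and from 7.42 to 8.96 in iHRAS* tumours (median 8.04). The melanocyte range lay above the iMet range, and iHRAS* array 6 reached into it from below.

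The other Gab1 probe sets followed. Probe set 1417693_a_at averaged 8.83 ± 0.37 (SD, n = 4) in melanocytes, 7.81 ± 0.31 (SD, n = 6) in iMet and 7.94 ± 0.55 (SD, n = 6) in iHRAS* tumours. Probe set 1448814_at averaged 8.41 ± 0.21, 7.07 ± 0.33 and 7.25 ± 0.51 (SD) in the same order. After group means were subtracted, 1417693_a_at and 1417694_at correlated at r = 0.97 over the 16 arrays, and 1448814_at with them at 0.64 and 0.65.

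Gab1 fell in both tumour models against melanocytes. In iMet tumours the difference was −1.45 ± 0.29 (SE) for 1417694_at, 2.73-fold (limma adjusted p = 0.00146), −1.34 ± 0.25 for 1448814_at (0.000821) and −1.02 ± 0.27 for 1417693_a_at (0.00859). In iHRAS* tumours it was −1.19 ± 0.29 (limma adjusted p = 0.00493), −1.16 ± 0.25 (0.00202) and −0.89 ± 0.27 (0.0159) in the same order. Without melanocyte arrays 2 and 4, 1417693_a_at gave −0.83 (limma adjusted p = 0.0897) in iMet and −0.70 (0.142) in iHRAS* tumours, and 1417694_at gave −0.97 (0.0725) in iHRAS* tumours. Without melanocyte array 4 alone, 1417693_a_at gave −0.71 in iHRAS* tumours (limma adjusted p = 0.0629).

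Between the tumour models no difference in Gab1 was called. The differences were −0.13, −0.26 and −0.17 for 1417693_a_at, 1417694_at and 1448814_at, with limma adjusted p of 0.735, 0.524 and 0.633. Their 95% intervals ran from −0.65 to 0.39, from −0.84 to 0.32 and from −0.68 to 0.33.

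Counted together, 7 of the 12 probe sets were tested between the tumour models, with 1 called higher (Met) and 3 lower (St14 and both Spint2) in iMet. Over all probe sets tested 19.3% were called, 10.9% higher and 8.34% lower. The median difference of the 7 was −0.26, against 0.06 over all probe sets tested. In 6 of the 12, tested or not, the ranges of the models did not overlap, against 7.42% of the 20380 probe sets with 1 symbol. For iMet tumours against melanocytes 10 were tested, with 2 called higher (both Hgf) and 5 lower (both Spint2 and all Gab1), where 32.6% of all probe sets were called, 14.7% higher and 17.9% lower. Their median was −0.43, against −0.10 for all, and 7 of the 12 did not overlap, against 21.2% of the 20380. For iHRAS* tumours against melanocytes 10 were tested, with 2 higher (St14 and Spint1) and 4 lower (Met and all Gab1), where 38.0% of all were called, 15.6% higher and 22.4% lower. Their median was −0.33, against −0.14 for all, and 2 of the 12 did not overlap, against 20.4% of the 20380. The filter let in 2 of the 7 and 4 of the 10 through 1 group alone, so these counts do not bear on the genes as a set. Both comparisons with melanocytes share the same 4 arrays. Without iHRAS* arrays 5 and 6, which stood apart in Xist, the differences between the models were 2.74 for Met (limma adjusted p = 0.00284), −2.02 for St14 (0.0189), and −2.32 (0.0318) and −2.67 (0.0273) for Spint2 1451935_a_at and 1438968_x_at.

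The genes around MET were grouped by role, with 1 probe set per gene, the brightest. Among MET co-receptors and binding partners 9 of 12 genes were tested, and between the models 0 were higher and 3 lower in iMet, where 20.1% of all genes were called, 10.7% higher and 9.38% lower. Sdc1, which encodes a heparan sulfate proteoglycan that can present HGF, was lower by −1.17 ± 0.17 (SE, limma adjusted p = 0.00100). Itga6, an integrin subunit, was lower by −0.91 ± 0.15 (SE, limma adjusted p = 0.00160), and Cd44, a hyaluronan receptor that can act as a MET co-receptor, by −0.73 ± 0.12 (SE, limma adjusted p = 0.00163). The list's median was −0.37, against 0.03 over all genes. All 3 were also called lower with the values as deposited and with each array centred on its median.

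Against melanocytes 2 co-receptor genes rose and 3 fell in iMet tumours, where 34.1% of all genes were called, 15.9% higher and 18.1% lower. In iHRAS* tumours 2 rose and 0 fell, where 38.5% were called, 17.8% higher and 20.7% lower. As deposited and median-centred, 1 rose and 1 fell in iHRAS* tumours: Cd44 was no longer called (limma adjusted p = 0.0747 and 0.122), and Itga6 was lower, by −0.80 and −0.82. Over all probe sets tested, 1868 of 13862 rose and 3875 fell as deposited, and 1879 of 13801 rose and 4232 fell median-centred. Dcn, the matrix proteoglycan decorin, which binds MET and is abundant in fibroblasts, rose by 4.41 ± 0.48 (SE, limma adjusted p = 9.45e-06) in iMet and 3.98 ± 0.48 (SE, limma adjusted p = 2.48e-05) in iHRAS* tumours. Dcn is itself 1 of the 11 genes in the fibroblast marker mean, which rose in both models as given above. In iMet tumours the differences from melanocytes were −1.30 for Sdc1, −1.49 for Itga6 and −1.65 for its partner Itgb4, all called (limma adjusted p = 0.000857, 0.00121 and 0.0180).

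Among adaptors and effectors 18 of 23 genes were tested, with 1 higher and 3 lower in iMet than in iHRAS* tumours, near the 20.1% called over all genes. Pik3ca, the catalytic subunit of PI3-kinase, was higher by 0.50 ± 0.11 (SE, limma adjusted p = 0.00854). Map2k1, the kinase MEK1, was lower by −0.55 ± 0.12 (0.00821), and the adaptors Crk and Grb2 by −0.57 ± 0.13 (0.0106) and −0.42 ± 0.11 (0.0159). These differences were small beside that of Met. Grb2 was not called as deposited (−0.20, limma adjusted p = 0.220) or median-centred (−0.40, 0.0738), nor Crk as deposited (−0.37, 0.0614). Against melanocytes 1 rose and 6 fell in iMet, and 1 rose and 5 fell in iHRAS* tumours, also near the 34.1% and 38.5% called over all genes. Rapgef1, an exchange factor for RAP1, fell in iMet and iHRAS* tumours, with differences of −0.82 and −0.67 (limma adjusted p = 0.00111 and 0.00392). Ptpn11, the phosphatase SHP2 that GAB1 recruits, fell likewise, with differences of −0.76 and −0.75 (0.0147 and 0.0133). The list's medians were −0.03, −0.17 and −0.23 in the 3 comparisons, against 0.03, −0.08 and −0.09 over all genes.

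The negative regulators that were called against melanocytes were all higher in the tumours. Of 12 tested among 14, 5 rose and 0 fell in iMet tumours, and 6 rose and 0 fell in iHRAS* tumours, with medians of 0.26 and 0.63 against −0.08 and −0.09 over all genes. Over all genes 34.1% and 38.5% were called in either direction, 15.9% and 17.8% higher. With either other scaling 4 rose in iMet and 6 in iHRAS* tumours, and 0 fell. Over all probe sets tested in iMet tumours, 2221 of 13862 rose and 1745 fell as deposited, and 1737 of 13801 rose and 3518 fell median-centred. For iHRAS* tumours these counts are given above. Errfi1, a feedback inhibitor of receptor kinases also called MIG6, rose by 3.92 ± 0.31 (SE, limma adjusted p = 3.63e-07) in iMet and 2.79 ± 0.31 (SE, limma adjusted p = 1.05e-05) in iHRAS* tumours. Dusp6, a phosphatase that acts on ERK, rose by 1.57 ± 0.29 (0.000877) and 1.94 ± 0.29 (0.000162).

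Between the models 2 of the 12 tested negative regulators were higher and 5 lower in iMet. Over all genes 20.1% were called, 10.7% higher and 9.38% lower. Errfi1 was higher by 1.13 ± 0.29 (SE, limma adjusted p = 0.0174), while Spry2, a feedback inhibitor of the RAS pathway, was lower by −1.04 ± 0.16 (0.00119). The phosphatase gene Ptprj was lower by −0.80 ± 0.17 (0.00664) and the cytokine inhibitor Socs1 by −0.81 ± 0.20 (0.0136). The iMet mean of Socs1, 5.92, was under the dim level, so its difference is poorly bounded. As deposited 2 were higher and 1 lower, and Ptprj (−0.54, limma adjusted p = 0.0694) and Socs1 (−0.65, 0.0595) were not called. Median-centred, 2 were higher and 3 lower. Over all probe sets tested, 2718 of 12896 were higher and 588 lower as deposited. Median-centred, 1317 of 12751 were higher and 880 lower, against 1387 and 1058 of 12679 after quantile normalization.

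Of 16 genes known to be induced by HGF or by other growth factors, 15 were tested, with 1 higher and 3 lower in iMet than in iHRAS* tumours, where 20.1% of all genes were called. Hbegf, an EGF receptor ligand, was lower by −2.42 ± 0.45 (SE, limma adjusted p = 0.00350), Plaur, the urokinase receptor, by −0.85 ± 0.20 (0.0102) and Ier3, an immediate early gene, by −1.74 ± 0.57 (0.0494). Jun was higher by 0.56 ± 0.17 (0.0420). As deposited 1 was higher and 1 lower, with Plaur at −0.58 (0.0608) and Ier3 at −1.65 (0.0554). Median-centred, 0 were higher and 2 lower, with Ier3 at −1.85 (0.0562) and Jun at 0.52 (0.0761). Over all probe sets tested, 2718 of 12896 were higher and 588 lower as deposited, and 1317 of 12751 higher and 880 lower median-centred. Against melanocytes 5 rose and 2 fell in iMet, and 6 rose and 2 fell in iHRAS* tumours, where 34.1% and 38.5% of all genes were called. Fosl1, an AP-1 subunit, rose by 2.63 ± 0.43 (0.000340) in iMet and 2.05 ± 0.43 (0.00196) in iHRAS* tumours. Snai1, a repressor of epithelial genes, rose by 2.02 ± 0.34 (0.000457) and 1.83 ± 0.34 (0.000863), while its relative Snai2 fell, with differences of −1.45 ± 0.40 (0.0125) and −1.96 ± 0.40 (0.00170). Values in parentheses are limma adjusted p.

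Other proteases that can cut HGF gave 2 tested genes of 10. Plat, the tissue plasminogen activator, was lower in iMet than in iHRAS* tumours by −1.22 ± 0.20 (SE, limma adjusted p = 0.00170) and rose in iHRAS* tumours against melanocytes by 1.26 ± 0.21 (SE, limma adjusted p = 0.000426). Of 6 serpins, 2 were tested between the models and 3 against melanocytes. Serping1, the C1 inhibitor, was lower in iMet than in iHRAS* tumours by −1.94 ± 0.55 (SE, limma adjusted p = 0.0280). It rose over melanocytes by 4.63 ± 0.58 in iMet and 6.57 ± 0.58 in iHRAS* tumours (SE, limma adjusted p = 3.60e-05 and 1.48e-06). Its melanocyte mean of 5.33 was under the dim level, which bounds these rises poorly. The HGF relative Mst1, its receptor Mst1r and plasminogen (Plg) were too dim to test.

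**Figure D4:**
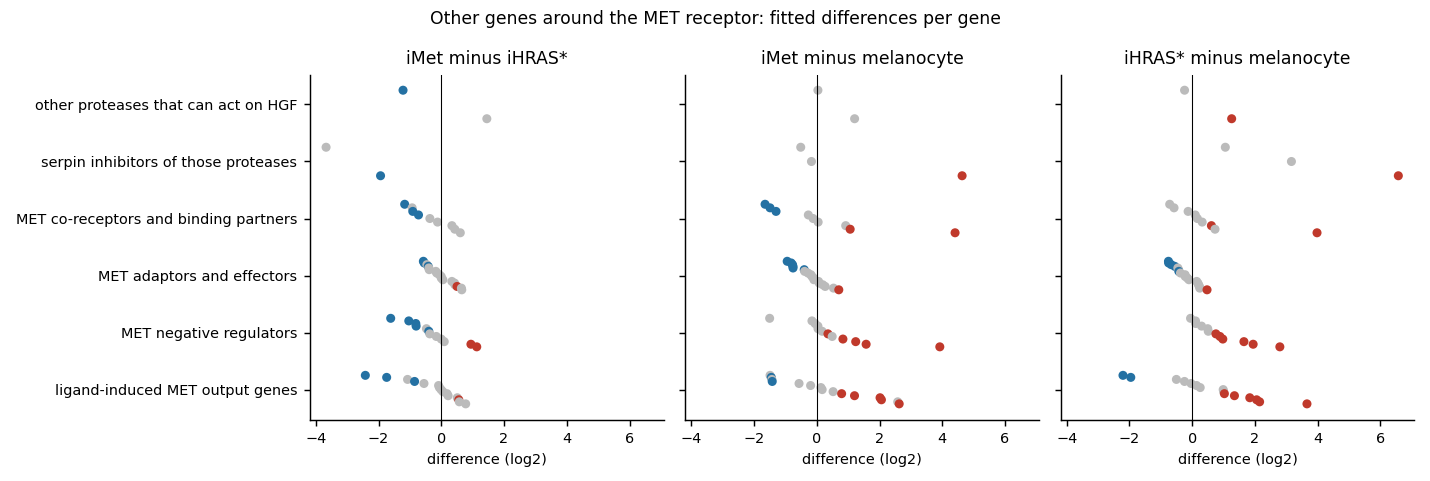
Difference in log2 signal (horizontal axis) of the tested genes of 6 lists around MET (vertical axis) in the 3 comparisons, with 1 point per gene, red for a higher call, blue for a lower call and grey for no call. Of the 12 negative regulators tested, 0 are called lower than in melanocytes in iMet or iHRAS* tumours, where 18.1% and 20.7% of all genes were. Between the models 5 are lower and 2 higher in iMet, where 20.1% of all genes were called. That split changed with the scaling of the values.

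The genes whose levels varied most like each member, after subtracting group means, were ranked by Pearson's r over the 16 arrays among 8650 candidate genes. For Met they were Prpf8 (r = 0.85), Lbx1 (0.78), Btf3 (0.77), Nol11 (0.77) and Prkca (0.77). For Hgf they were Lmo7 (r = 0.85), Cemip (0.79), Ogn (0.77), Fam102a (0.77) and St3gal1 (0.76). For St14 they were Cmpk1 (r = 0.87), Rnf128 (0.85), Rfk (0.82), Alas1 (0.81) and Pgap6 (0.81), and for Gab1 1417694_at Zfp292 (r = 0.84), Ahcyl1 (0.82), Apbb3 (0.81), Slc3a2 (0.77) and Zfp90 (0.77). All such correlations come from the same libraries and are given as description.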

How the data were processed

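The authors deposited 1 table of processed values for all 16 arrays, 22690 probe sets each. Its unit was taken as log2 from the range of the deposited values, −4.07 to 14.53. The log base, summarisation and normalization are not given in the sources used here, nor are scan dates or batches. Per the labels' protocols, RNA was isolated with Trizol and RNeasy columns and amplified as biotinylated cRNA from oligo-dT primers. Deposited array medians spread over 0.72 (6.56 to 7.28), so 22626 probe sets (64 controls left out) were quantile-normalized, which makes every difference relative to the rest of the array.

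Genes were named by the platform annotation, and all 12 probe sets matched RefSeq by gene ID. Probe sets above log2 6.21 on 6 of 12 tumour arrays, or on 4 of all 16, were fitted with limma 3.58.1 in R 4.3.3 (lmFit, eBayes). The 2 models were compared in a fit of the tumours alone, and tumours with melanocytes in a fit of all 16 arrays. P-values were 2-sided and Benjamini-Hochberg adjusted over 12679 and 13823 probe sets, with calls under 0.05. Pathway genes were read from the same fits by the brightest probe set of each gene, 8058 and 8651 of them. Single values were compared by 2-sided exact permutation. Values as deposited and median-centred arrays were alternatives, as were other filters, fits and left-out arrays. The text names all members and, per list and comparison, some of the 4 called genes with the smallest p. Among those left out were Fos against melanocytes in both models, and Map2k1 and Src in iMet tumours against melanocytes. Scripts were tested on simulated data. The members and lists were chosen with earlier results of these data known. The number of arrays limits the precision.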

Additional observations from a re-analysis of the deposited data

Results flagged for a closer look

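Of 36 groups of probe set values examined for an array far from the rest of its group, 7 had one, where chance gives about 1 in 20, or 1.8. Met was lowest on iMet array 2, at 8.39 against 9.49 to 9.98 on the other iMet arrays, and on iHRAS* array 1, at 5.42 against 6.99 to 7.46. Hgf 1425379_at was lowest on iMet array 6, at 6.17 against 7.95 to 8.63. On iHRAS* array 2, St14 reached 8.78 (others 6.29 to 7.13), Spint1 9.75 (others 5.48 to 6.83) and Spint2 1451935_a_at 11.22 (others 7.95 to 8.41), so that 3 of the 7 fell on that array. Gab1 1417693_a_at was highest on melanocyte array 4, at 9.38 against 8.61 to 8.67.

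The tumour models also differed from each other in 4 probe sets when each is set against melanocytes. Since the melanocyte mean cancels, these are the iMet minus iHRAS* differences of the report and no further observation: 2.53 for Met, −1.78 for St14, and −2.24 and −2.10 for Spint2 1438968_x_at and 1451935_a_at. St14 and 1438968_x_at entered that fit through the iHRAS* arrays alone.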

How the results depend on the processing

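The difference in Met between the models stayed called under each alternative run, from 2.22 to 2.74, and from 2.23 to 2.75 with 1 array left out. The 4 called probe sets became 1 with the keratinocyte covariate, up to 6 in other alternative runs, and 3 to 7 with 1 array left out. The 7 came without iHRAS* array 1, where Hgf and Spint1 entered the fit because the filter then asked for 5 arrays. Both Hgf probe sets also entered, and were called higher in iMet, without iMet array 6 or any other 1 iHRAS* array. The same held as deposited, median-centred, with either other filter setting, with all 16 arrays in the fit, and without iHRAS* arrays 5 and 6. For iMet against melanocytes, Met ran from 0.84 to 1.46 with 1 array left out, and was called without iMet array 2 (1.40, adjusted p = 0.0233), melanocyte array 2 (1.39, 0.0456) or melanocyte array 4 (1.46, 0.0293). It was also called, at 1.18, with 1 probe set per gene (0.0479), an intensity trend (0.0448) or only the 2 groups in the fit (0.0417), and at 1.92 without melanocyte arrays 2 and 4. The count of 7 ran from 7 to 8 with 1 array left out, and was 4 with 1 probe set per gene by construction. Without melanocyte arrays 2 and 4, Met gained a call, while both Spint2 probe sets and Gab1 1417693_a_at lost theirs. For iHRAS* against melanocytes, Met ran from −1.69 to −1.04, and was not called without melanocyte array 2 (−1.14, 0.0870) or 4 (−1.07, 0.0901), with only those groups in the fit (−1.35, 0.0522) or without both arrays (−0.61). The count of 6 ran from 3, without melanocyte array 4, to 6, and was 1 without arrays 2 and 4. The cause of these changes was not tested.

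Reversals were all of uncalled differences. Between the models Gab1 1417693_a_at became 0.11 as deposited (−0.28 to 0.026 with 1 array left out). Gab1 1448814_at became 0.054 as deposited and 0.049 without iHRAS* arrays 5 and 6 (−0.28 to 0.0037). St14 in iMet against melanocytes became −0.28 without melanocyte arrays 2 and 4. In iHRAS* against melanocytes, Hgf 1425379_at became 0.28 as deposited, 0.26 with median centring, 0.14 with the replicate block and 0.12 with the covariate (−0.18 to 0.15), and 1451866_a_at ran from −0.64 to 0.037. Spint2 1451935_a_at became −0.13, −0.15, −0.12 and, without melanocyte arrays 1 and 3, −0.44 (−0.45 to 0.25) as deposited, median-centred and with the covariate. Spint2 1438968_x_at became 0.14 without iHRAS* arrays 5 and 6 and 0.36 without melanocyte arrays 2 and 4. With the covariate, Spint2 1451935_a_at in iMet against melanocytes was −1.73 (0.0510).

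Replicate numbers gave no strong sign of pairing: same-numbered deviations correlated from −0.26 to 0.12. Samples of different numbers were not compared in this way, so pairing was not excluded. With the replicate number as a block, Met was 2.53 (adjusted p = 0.00935), 1.05 (0.117) and −1.48 (0.0334), and the counts stayed at 4, 7 and 6. Of all calls, 56.7% were higher in iMet than in iHRAS*, but 82.2% as deposited, where the median difference was 0.26 and not 0.06. For iMet against melanocytes 45.1% were higher, 56.0% as deposited and 33.1% with median centring, with medians of −0.10, −0.01 and −0.23. For iHRAS* against melanocytes 41.1% were higher and 30.7% with median centring, with medians of −0.14 and −0.27. Low signal limits Hgf, Hgfac, Hpn, St14, Spint1 and, in iMet tumours, Spint2 1438968_x_at. Among the pathway genes named, it limits Serping1 in melanocytes and Socs1 in melanocytes and iMet tumours. For the pathway lists these scalings, chosen after seeing the data, moved counts of calls between the models by more than 1.5 times in 4 lists. As deposited, negative regulators had 3 in place of 7, growth factor-induced genes 2 in place of 4, and proteases 2 in place of 1. Median-centred, growth factor-induced genes had 2 and serpins 2 in place of 1. Over all probe sets tested, 3306 of 12896 were called as deposited and 2197 of 12751 median-centred, in place of 2445 of 12679.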
